A study of Rattus norvegicus with 6 samples.

Results

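The 10 genes described here belong to the integrated stress response and were taken by symbol from the 23091 genes of the deposited table, where each of the 10 symbols stands on 1 gene identifier. They are Atf4, Atf5, Atf3, Ddit3, Trib3, Ppp1r15a, Chac1, Sesn2, Asns and Psat1, and all 10 passed the filter on low counts that left 12623 genes for testing. The RNA came from wild-type rat marrow cells labelled as mesenchymal stem cells, which are stromal cells that grow attached to the dish. All samples spent 7 days in a neural differentiation medium. The 3 CYSP samples received CYSP, a treatment whose composition the labels do not spell out and which the series' text places among small molecules that turn these cells towards neurons. The 3 CK samples received the solvent DMSO in the same medium. The labels do not say whether the samples of a group are separate cultures or animals, so p-values measure only how these samples vary, and that variation may be technical.

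The integrated stress response starts when a stress-sensing kinase phosphorylates the initiation factor eIF2, which slows translation of most messages while a few, among them that of Atf4, are translated more. ATF4 protein, a basic leucine zipper (bZIP) transcription factor, then activates genes for amino acid supply, for redox control and for the shutting down of the response itself. Because ATF4 is set largely by translation, its messenger RNA level is only part of its activity, and neither eIF2 phosphorylation nor protein was measured here.

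Total counts lay between 15060933 and 17244700 per sample, and a count of 0 still allows 3 counts, which is 0.169 to 0.205 CPM (counts scaled to the TMM-adjusted library size, as for all CPM below) and covers counting error only. All 12 stromal markers were tested: 6 were higher and 5 lower, with a median log2 fold change of 0.16. Their summed level was 18344 to 19532 CPM in CYSP samples and 70258 to 72490 CPM in CK samples, so the sum did not follow the median. Cd44, Thy1 and Pdgfra were well above the limit in every sample, whereas Lepr, a marker of marrow stroma in mice, was at 0.833 ± 0.273 CPM in CYSP and 0.776 ± 0.173 CPM in CK (mean ± SD, n = 3 each). All 12 macrophage and leukocyte markers were detected too. Of these, 10 fell in CYSP and 1 rose, and their summed level was 628 to 631 CPM in the CYSP samples and 1881 to 2128 CPM in the CK samples. Of 10 neuron markers 4 could be tested, with 2 higher, 2 lower and a summed level of 86.8 to 91.1 CPM in CYSP and 14.5 to 15.1 CPM in CK; another 2 were at 0 in all samples. Of 6 adipocyte and 6 endothelial markers 3 each could be tested. Among the adipocyte markers 1 was higher, 1 lower and 1 not called, with a median log2 fold change of -0.07. Their summed level was 515 to 543 CPM in CYSP and 17.5 to 21.2 CPM in CK. Among the endothelial markers 2 were higher and 1 lower, with a summed level of 2.57 to 4.10 CPM in CYSP and 1.51 to 2.32 CPM in CK. These are bulk samples, in which fewer cells of a type and less RNA per cell cannot be told apart. The part of RNA from other cell types in the values below was not tested.

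Promoter sequences are shown for 4 members that were chosen by motif and by change. Chac1 and Trib3 fell strongly and their windows hold a C/EBP-ATF response element. Ppp1r15a fell and its window holds a cAMP response element, and Psat1 did not fall. The windows of Atf4, Atf5, Ddit3, Asns and Sesn2, which also fell, hold neither motif and are not shown. Because of that choice, these 4 cannot show whether motif and change are related. Each window runs from 250 bases before to 50 bases after the gene's start, 5′ to 3′, from RefSeq on GRCr8, matched by symbol. Capitals mark the motif.
Chac1, chr3:126795881-126796180, plus strand: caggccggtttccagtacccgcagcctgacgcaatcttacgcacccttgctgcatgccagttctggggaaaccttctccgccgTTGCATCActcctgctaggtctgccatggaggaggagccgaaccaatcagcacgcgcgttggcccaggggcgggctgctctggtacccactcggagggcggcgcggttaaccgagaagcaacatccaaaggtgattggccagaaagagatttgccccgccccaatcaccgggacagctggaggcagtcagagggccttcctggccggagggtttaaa
Trib3, chr3:161275484-161275783, minus strand: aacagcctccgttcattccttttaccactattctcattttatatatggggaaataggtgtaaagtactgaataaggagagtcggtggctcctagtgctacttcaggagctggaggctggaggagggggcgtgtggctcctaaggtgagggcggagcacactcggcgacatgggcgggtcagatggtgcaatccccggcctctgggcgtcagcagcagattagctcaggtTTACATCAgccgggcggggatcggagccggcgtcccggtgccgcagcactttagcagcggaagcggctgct
Ppp1r15a, chr1:105139547-105139846, minus strand: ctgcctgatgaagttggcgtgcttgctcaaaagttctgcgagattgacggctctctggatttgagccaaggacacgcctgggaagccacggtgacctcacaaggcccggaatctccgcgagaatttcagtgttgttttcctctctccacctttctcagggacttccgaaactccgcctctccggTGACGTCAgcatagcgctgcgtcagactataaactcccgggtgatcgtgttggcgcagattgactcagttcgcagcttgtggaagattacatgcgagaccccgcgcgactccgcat
Psat1, chr1:222645359-222645658, minus strand: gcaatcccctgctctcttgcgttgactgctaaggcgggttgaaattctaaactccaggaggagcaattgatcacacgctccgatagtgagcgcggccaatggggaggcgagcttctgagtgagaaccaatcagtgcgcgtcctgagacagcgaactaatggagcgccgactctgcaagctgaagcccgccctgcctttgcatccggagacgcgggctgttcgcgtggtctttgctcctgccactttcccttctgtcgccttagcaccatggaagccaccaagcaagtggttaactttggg

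The C/EBP-ATF response element, the composite site bound by ATF4 with a C/EBP partner, was searched as TGATGNAA on both strands, and the cAMP response element as TGACGTCA, which reads the same on both strands. RefSeq promoter windows were found for 9 of the 10 members, all but Atf3. The first motif was in 2 of these 9, as TGATGCAA from 167 to 160 bases before the start of Chac1 and as TGATGTAA from 21 to 14 bases before that of Trib3, both on the opposite strand. It was in 3.98% of all 33469 windows of the table and in 2.0% of the 10869 windows of tested genes. The cAMP response element was in 1 of the 9, from 66 to 59 bases before the start of Ppp1r15a, in 1.83% of all windows and in 3.05% of those of tested genes. No member's window held both motifs. With the longer form TGATGNAAT, which contains the first motif, none of the 9 matched, against 1.09% of all windows. A match, or the lack of one, describes letters in these windows only. Sites outside them were not searched.

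Of the 10 members 9 were lower in CYSP and 1, Psat1, was higher, by the quasi-likelihood test of edgeR, adjusted after Benjamini and Hochberg over all tested genes, at a threshold of 0.05. Over all tested genes, 37.8% were called lower and 38.2% higher, 76.1% in either direction, so most genes differed in this comparison. The median log2 fold change of the members was -1.07, against 0.005 over all tested genes. By size, 5 of the 10 members fell by 1 or more on the log2 scale, against 12.7% of tested genes. All 3 CYSP samples lay below all 3 CK samples for 9 members and above them for Psat1, while 77% of tested genes had groups that did not overlap. The 9 falls and the rise of Psat1 were also called when any 1 sample was left out.

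**Figure D1:**
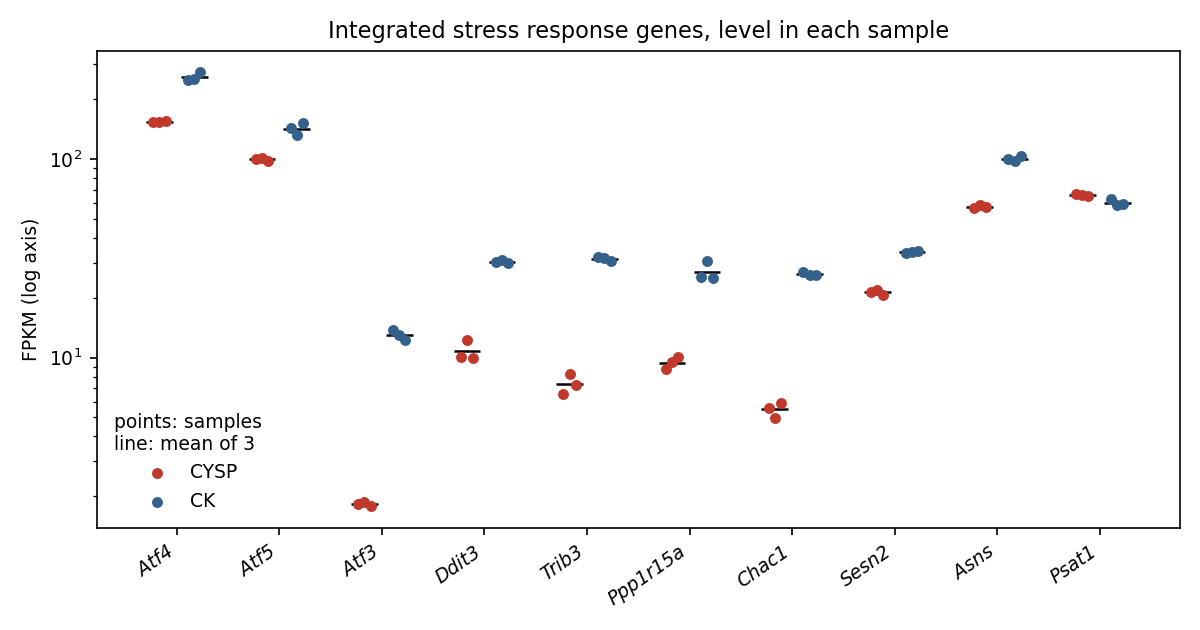
FPKM of the 10 genes in each sample on a log axis, CYSP in red left of CK in blue; points are samples and lines are means of 3. Every gene but Psat1 has its CYSP points below its CK points, with Atf3 farthest down at 1.79 to 1.88 FPKM in CYSP.

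**Figure D2:**
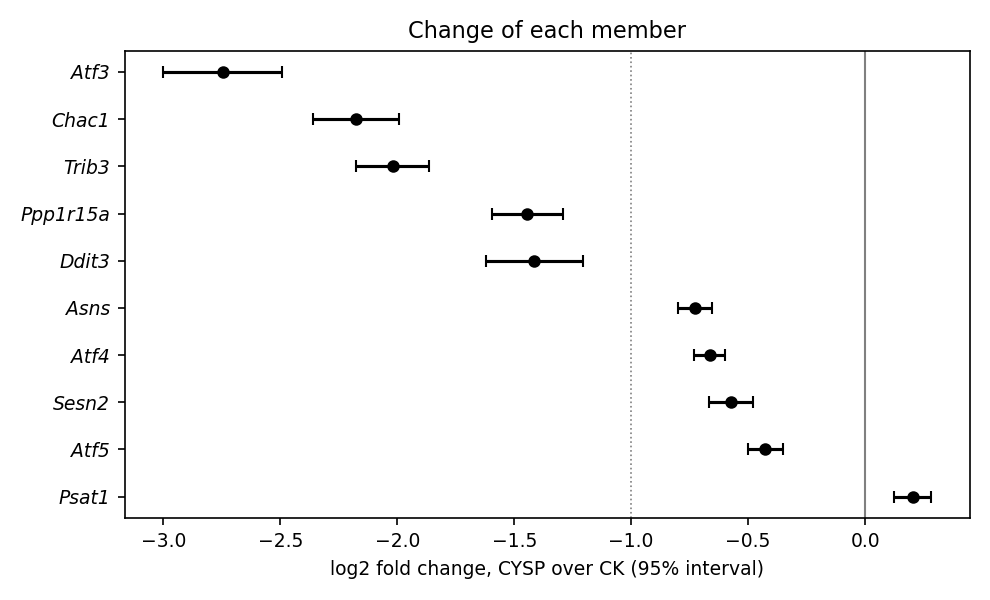
log2 fold change of CYSP over CK for each gene with its 95% interval from edgeR, ordered from the largest fall; the dotted line marks a fall of 1. Atf3, Chac1, Trib3, Ppp1r15a and Ddit3 lie left of that line with their whole interval, and Psat1 alone lies right of 0.

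Levels are given below in FPKM, a fragment count scaled to transcript length and library size, as the authors deposited it, so that genes can be compared with each other; fold changes and p-values come from the counts. Atf4, the central transcription factor of the response, had 154, 153 and 156 FPKM in the CYSP samples, against 250.4, 255 and 273 FPKM in the CK samples. It was the most abundant of the 10 in both groups, and its groups were far apart for their spread. The log2 fold change was -0.66 (SE 0.033, edgeR adjusted p = 9.38e-31), which leaves 63.1% of the CK level. Atf5, a related bZIP factor whose translation is controlled in a similar way, had 99.9, 102 and 97.7 FPKM in CYSP samples and 143, 132 and 151 FPKM in CK samples. Its fall of 0.43 on the log2 scale (SE 0.038, edgeR adjusted p = 4.45e-16) was the smallest among the 9. RefSeq places Nup62, a nuclear pore gene, and Il4i1 over part of Atf5, and without a statement that counting used strand their reads may not be told apart. Nup62 itself had 8.55 ± 0.357 FPKM in CYSP and 18.8 ± 0.494 FPKM in CK (SD, n = 3 each).

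The bZIP factors that act downstream fell by more. Atf3, a stress-induced factor that mostly represses transcription, had 1.83, 1.88 and 1.79 FPKM in the CYSP samples and 13.8, 13.01 and 12.3 FPKM in the CK samples. This was the largest fall of the 10, a log2 fold change of -2.75 (95% interval -3.00 to -2.49, edgeR adjusted p = 1.19e-32), and 3.11% of tested genes had a lower one. It rests on 51 to 59 counts per CYSP sample and 375 to 451 per CK sample. Ddit3, which encodes CHOP, a factor that pairs with C/EBP proteins and promotes cell death under lasting stress, had 10.1, 12.3 and 9.97 FPKM in CYSP samples, against 30.2, 31.0 and 30.1 FPKM in CK samples. Its CYSP samples were all well below its CK samples, at 37.5% of their level by the fit (log2 fold change -1.42, SE 0.1, edgeR adjusted p = 4.59e-21). RefSeq places Mars1, the methionyl-tRNA synthetase gene, and a further protein-coding gene, LOC134479709, over part of Ddit3. Mars1 had a log2 fold change of -0.33. Garin4 overlaps Atf3 in RefSeq, and a long noncoding RNA overlaps Sesn2, with the same limit.

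Both members that restrain the response fell. Trib3, a pseudokinase that binds and inhibits ATF4 and CHOP, had 6.52, 8.24 and 7.27 FPKM in the CYSP samples, against 31.9, 31.8 and 30.6 FPKM in the CK samples. The log2 fold change was -2.02 (SE 0.078, edgeR adjusted p = 7.44e-38), the smallest adjusted p among the 10. Ppp1r15a, also called GADD34, brings protein phosphatase 1 to eIF2 and so reverses its phosphorylation. It had 8.73, 9.46 and 10.04 FPKM in CYSP samples and 25.4, 30.7 and 25.3 FPKM in CK samples, with CK replicate 2 above the other CK samples. The log2 fold change was -1.44 (SE 0.076, edgeR adjusted p = 4.98e-28) and lay between -1.5 and -1.35 when any 1 sample was left out.

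Of the effectors, Chac1, which breaks down glutathione, had 5.57, 4.96 and 5.93 FPKM in CYSP samples and 26.8, 25.9 and 26.0 FPKM in CK samples. Its fall was the largest after that of Atf3 (log2 fold change -2.18, SE 0.093, edgeR adjusted p = 5.22e-35). Sesn2, a sestrin that lowers mTORC1 activity and senses leucine, had 21.4, 21.8 and 20.7 FPKM in CYSP samples, against 33.6, 33.9 and 34.2 FPKM in CK samples. Its samples agreed closely within each group, and its log2 fold change was -0.57 (SE 0.047, edgeR adjusted p = 1.08e-18). Asns, which makes asparagine, had 56.7, 58.3 and 57.2 FPKM in the CYSP samples and 100.5, 98.2 and 103 FPKM in the CK samples. It fell by 0.73 on the log2 scale (SE 0.036, edgeR adjusted p = 1.14e-30), close to the change of Atf4.

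Psat1, the aminotransferase of the serine synthesis pathway, went the other way by a small amount. It had 66.3, 65.6 and 64.8 FPKM in the CYSP samples, against 62.9, 58.9 and 59.2 FPKM in the CK samples. The lowest CYSP sample lay just above the highest CK sample. The log2 fold change on the counts was 0.20 (95% interval 0.12 to 0.28, edgeR adjusted p = 6.31e-06), and 60.6% of tested genes had a lower one. In the authors' deposited table Psat1 has a log2 fold change of 0.12 and an adjusted p of 0.521, while the other 9 members have adjusted p-values of at most 2.37e-10 there. With library size only in place of TMM scaling the log2 fold change on the counts was also 0.12 (edgeR adjusted p = 0.00576). The authors' test was not given in the sources used here.

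The p-values rest on a very small spread between samples, with a biological coefficient of variation of 0.0393. When a coefficient of 0.2 was assumed instead, 8 members were called lower, against 22.2% of tested genes, and Atf5 and Psat1 were not called. With 0.4 assumed, and likewise in a test against a log2 fold change of 1, Atf3, Ddit3, Trib3, Chac1 and Ppp1r15a were called lower, and Atf4, Atf5, Sesn2, Asns and Psat1 were not called, with 9.58% and 9.64% of tested genes called lower.

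By mean FPKM the order in CYSP was Atf4, Atf5, Psat1, Asns, Sesn2, Ddit3, Ppp1r15a, Trib3, Chac1 and Atf3. Of the neighbours in that order, the sample ranges of Ddit3 and Ppp1r15a overlapped and the others did not. In CK the order was Atf4, Atf5, Asns, Psat1, Sesn2, Trib3, Ddit3, Ppp1r15a, Chac1 and Atf3, where the ranges of Trib3, Ddit3, Ppp1r15a and Chac1 overlapped from each to the next. Asns and Psat1 changed places between the groups. The genes that lay between 26.3 and 31.5 FPKM in CK, Chac1, Ppp1r15a, Ddit3 and Trib3, were spread from 5.48 to 10.8 FPKM in CYSP. The FPKM of all 10 members together came to 432, 437 and 432 in the CYSP samples and to 718, 709.9 and 745 in the CK samples.

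Set against the Atf4 level of the same sample, the members fell into 3 kinds. Sesn2 and Asns kept about the same proportion to Atf4: Sesn2 stood at 13.8% ± 0.516 of the Atf4 FPKM in CYSP and 13.1% ± 0.494 in CK, and Asns at 37.1% ± 0.862 in CYSP and 38.8% ± 1.19 in CK (mean ± SD, n = 3 each). For Sesn2 and Asns the samples of the groups overlapped. Atf3, Chac1, Trib3, Ddit3 and Ppp1r15a took a smaller proportion. Atf3 was at 1.19% ± 0.0415 in CYSP and 5.04% ± 0.51 in CK, Chac1 at 3.55% ± 0.282 in CYSP and 10.1% ± 0.591 in CK, and Ddit3 at 6.98% ± 0.924 in CYSP and 11.7% ± 0.641 in CK. Trib3 was at 4.75% ± 0.591 in CYSP and 12.2% ± 0.829 in CK, and Ppp1r15a at 6.09% ± 0.399 in CYSP and 10.5% ± 1.43 in CK. Atf5 and Psat1 took a larger one, with Psat1 at 42.4% ± 0.824 in CYSP and 23.3% ± 1.71 in CK. These proportions are a description, with no test: 3 samples against 3 allow no exact permutation p under 0.10.

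**Figure D3:**
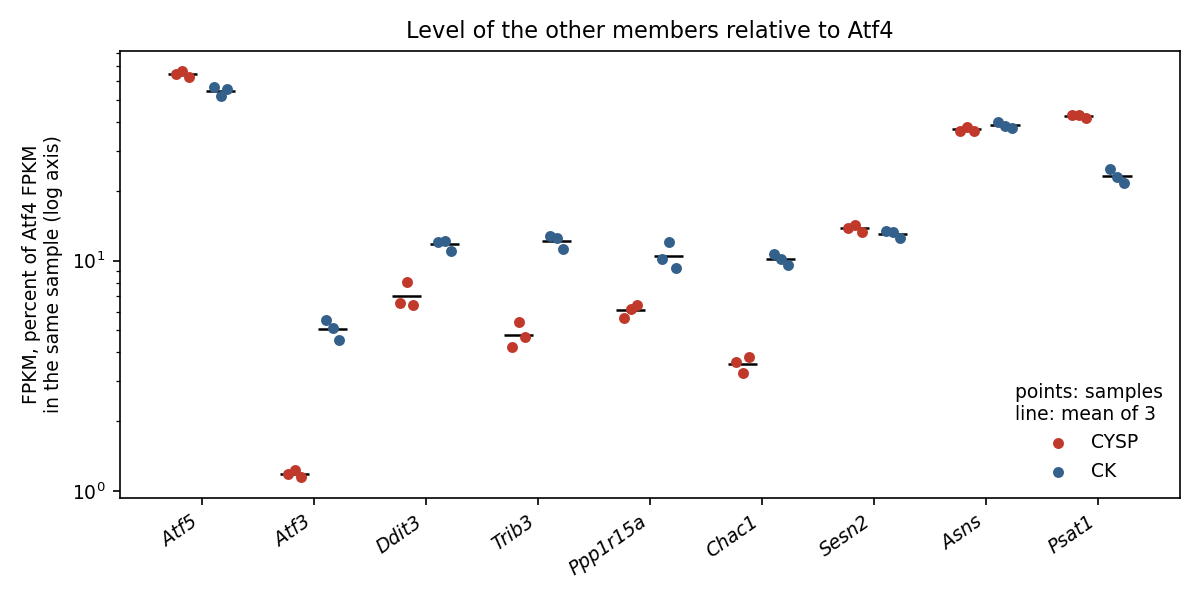
FPKM of the other 9 genes as a percent of the Atf4 FPKM of the same sample, log axis, CYSP in red left of CK in blue; points are samples and lines are means of 3. Sesn2 and Asns overlap between groups near 13 and 38 percent, Psat1 stands higher in CYSP, and Atf3 drops to about 1.19 percent there.

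Upstream of Atf4, the kinases that phosphorylate eIF2 moved in both directions, with 2 higher and 2 lower of 4. Over all tested genes 38.2% were higher and 37.8% lower. Eif2ak3, or PERK, which senses unfolded protein in the endoplasmic reticulum, had 40.3 ± 2.67 CPM in CYSP and 29.6 ± 1.97 CPM in CK (SD, n = 3 each), a log2 fold change of 0.45 (edgeR adjusted p = 6.88e-08). Eif2ak4, or GCN2, which senses uncharged tRNA, had 28.8 ± 3.53 CPM in CYSP and 25.1 ± 0.985 CPM in CK (log2 fold change 0.20, edgeR adjusted p = 0.0245), and its groups overlapped. That call ended without CK replicate 2, without CYSP replicate 1, with DESeq2, with library size only and with limma on FPKM, leaving 1 of the 4 kinases higher. With an assumed coefficient of variation of 0.2 or 0.4, and with the test against a log2 fold change of 1 (glmTreat), 0 of the 4 kinases were called in either direction. Eif2ak2, the kinase activated by double-stranded RNA, and Eif2ak1, the kinase that senses heme, were lower by 0.29 and 0.16 on the log2 scale, and Eif2ak1 lost its call without CYSP replicate 3, leaving 1 of the 4 lower. Of 12 tested genes listed with eIF2, its exchange factor eIF2B and their regulators, 7 were lower and 3 higher, and the median log2 fold change was -0.26. The 3 higher genes were Eif2b5, Impact and Eif2a, and Eif2a encodes a separate initiation factor, not a subunit of eIF2. Impact lost its call in 14 of the 19 alternatives. Ppp1r15b, the constitutive counterpart of Ppp1r15a, fell by 0.57 (SE 0.059), Gcn1, which activates GCN2, by 0.51, and Eif2b3 by 0.48, while Eif2b5 had a log2 fold change of 0.22. Without CYSP replicate 2, 1 of these 12 genes was called higher in place of 3, and also 1 with library size only and 0 with limma on FPKM. With a coefficient of variation of 0.2 assumed, 1 was lower and 0 higher, and with 0.4 or glmTreat 0 were called.

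The bZIP partners of the members moved in both directions, and of 5 genes listed as paralogs none fell. That list leaves out Ppp1r15b, which was counted with the eIF2 regulators and fell, and the bZIP relatives. Of 15 tested bZIP partners and relatives 5 (33.3%) rose and 6 (40%) fell, with a median of -0.05. These shares lie near the 38.2% higher and 37.8% lower of all tested genes. Cebpb, a C/EBP factor that pairs with ATF4 and CHOP, had 169 ± 3.83 CPM in CYSP and 35.7 ± 2.18 CPM in CK (SD, n = 3 each; log2 fold change 2.24, SE 0.049, edgeR adjusted p = 2.62e-54). Its relative Cebpd rose by 1.10, whereas Cebpg, another C/EBP gene, had a log2 fold change of -0.72 (edgeR adjusted p = 8.54e-23). Fos and Jdp2, other bZIP genes, fell by 1.05 and 0.97. With library size only, and with limma on FPKM, 2 of the 15 were called higher in place of 5. With a coefficient of variation of 0.4 assumed, or glmTreat, 1 was higher and 0 were lower. Among all 12623 tested genes, 0.4 and glmTreat called 1496 and 1504 higher, and 1209 and 1217 lower. Of the 5 listed paralogs (Sesn1, Sesn3, Trib1, Trib2 and Chac2) 3 rose and none fell. Sesn3, a sestrin like Sesn2, had 166 ± 6.72 CPM in CYSP and 21.2 ± 1.44 CPM in CK (log2 fold change 2.97, SE 0.055, edgeR adjusted p = 1.38e-59), whereas Sesn1 did not pass the test, with 8.78 ± 0.613 CPM in CYSP and 9.32 ± 2.3 CPM in CK. The pseudokinase gene Trib1 rose by 0.70 and Chac2 by 0.54, and Trib2 had 25.3 ± 0.404 CPM in CYSP and 25.3 ± 1.88 CPM in CK. Of the 5 paralogs 1, Sesn3, was called higher with 0.4 assumed or glmTreat.

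Among genes of amino acid supply, many of them ATF4 targets in mammals, more fell than rose. Over all tested genes 37.8% were lower and 38.2% higher. Of 16 tested genes of serine, proline and folate-linked synthesis, 9 were lower and 5 higher, and the median log2 fold change was -0.52. Phgdh and Psph, the enzymes before and after Psat1 in serine synthesis, fell by 0.98 and 1.29, in contrast to Psat1. Phgdh had 42.0 ± 0.606 CPM in CYSP and 82.8 ± 1.47 CPM in CK (SD, n = 3 each), and Psph 10.8 ± 1.4 CPM in CYSP and 26.5 ± 3.12 CPM in CK. The Phgdh symbol stands on 2 gene identifiers, as does that of Shmt2, so their reads may be split. Mthfd2, a mitochondrial folate enzyme, fell by 1.04 and Shmt1, the cytosolic serine hydroxymethyltransferase, by 2.01, while the mitochondrial Shmt2 had a log2 fold change of 0.29 and Mthfd2l, a relative of Mthfd2, of 3.09. Cbs, which makes cystathionine from serine and homocysteine, had no count in CK and 274 over the CYSP group. It was at least 99.9-fold higher, with a floor of 3 counts for the whole CK group. With a coefficient of variation of 0.2 assumed 8 of the 16 were lower and 4 higher, with 0.4 it was 3 and 3, and with glmTreat 5 and 3. The shares of all tested genes called lower in these settings were 22.2%, 9.58% and 9.64%.

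Of 13 tested amino acid transporters 9 were lower and 4 higher, and the median log2 fold change was -1.3. All 13 were thus called, against 76.1% of all tested genes. Slc7a5, the importer of large neutral amino acids such as leucine, had 66.2 ± 2.12 CPM in CYSP and 517 ± 8.92 CPM in CK (log2 fold change -2.96, SE 0.037, edgeR adjusted p = 8.88e-72, n = 3 each). Slc3a2, the heavy chain that Slc7a5 and Slc7a11 share, fell by 1.3 on the log2 scale, and Slc1a4, a transporter of small neutral amino acids, had a log2 fold change of -2.44. Slc7a11, the cystine importer that supplies glutathione synthesis and an established ATF4 target, went the other way, with 83.1 ± 6.78 CPM in CYSP and 24.3 ± 1.85 CPM in CK (log2 fold change 1.77). Slc7a2, an arginine and lysine transporter, rose by 3.08. Of the 13, 7 were lower and 2 higher with a coefficient of variation of 0.4 assumed and with glmTreat. In these settings 9.58% and 9.64% of all tested genes were called lower.

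Of 21 tested cytosolic tRNA synthetases and tRNA export genes 17 fell and 2 rose, with a median of -0.39. The shares over all tested genes were 37.8% lower and 38.2% higher. Gars1 and Eprs1, for glycyl and for glutamyl and prolyl tRNA, fell by 1.15 and 1.01, and Xpot, the exporter of tRNA, by 1.07. The exceptions were Qars1, for glutaminyl tRNA, with a log2 fold change of 1.06, and Kars1, for lysyl tRNA, with 0.22. With a coefficient of variation of 0.2 assumed 9 of the 21 were lower and 1 higher. With 0.4 assumed 0 were called, and with glmTreat 2 were lower and 0 higher. In these settings 22.2%, 9.58% and 9.64% of all tested genes were called lower.

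Other ATF4 and CHOP targets were split, with 7 higher and 4 lower of 14 tested and a median of 0.19. Among all tested genes 38.2% were higher and 37.8% lower. Pmaip1, the death-promoting protein NOXA, had 10.1 ± 0.676 CPM in CYSP and 165 ± 2.54 CPM in CK (log2 fold change -4.02, SE 0.062, edgeR adjusted p = 4.56e-65, n = 3 each), and Herpud1, which helps to clear misfolded protein from the endoplasmic reticulum, fell by 1.33. In the other direction, Ddit4, an inhibitor of mTORC1, had 223 ± 6.88 CPM in CYSP and 39.1 ± 4.02 CPM in CK. Gdf15, a secreted stress hormone, had 20.2 ± 1.5 CPM in CYSP and 1.21 ± 0.363 CPM in CK, and Ero1a, an oxidase of the endoplasmic reticulum, rose by 3.07. Fgf21, another secreted target, was not tested, with counts in CYSP replicate 1 alone. Of the 14, 5 were higher and 2 lower with a coefficient of variation of 0.4 assumed and with glmTreat. Among all 12623 tested genes these settings called 1496 and 1504 higher, and 1209 and 1217 lower.

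The other arms of the unfolded protein response showed no common direction. Of 21 tested genes of the ATF6 and XBP1 arms 10 rose and 7 fell, with a median of 0.03. The shares over all tested genes were 38.2% higher and 37.8% lower. With library size only 8 of the 21 were higher and 9 lower, and with limma on FPKM 8 and 8. Hspa5, the main chaperone of the endoplasmic reticulum, did not pass the test, with 1199.7 ± 6.76 CPM in CYSP and 1174 ± 11.5 CPM in CK (log2 fold change 0.03, edgeR adjusted p = 0.244). With library size only Hspa5 was called, and its direction differed in 3 of the 19 alternatives. Xbp1, a transcription factor of the response, fell by 0.84, and Sdf2l1, a chaperone component, rose by 1.08. Of 10 mitochondrial stress proteins 4 rose and 2 fell, with a median of 0.06, Hspe1, a mitochondrial chaperonin, highest at 0.67. With a coefficient of variation of 0.2 assumed, 3 of the 21 were higher and 2 lower, and 1 of the 10 was higher and 0 were lower. With 0.4 assumed or glmTreat 0 genes of the ATF6, XBP1 and mitochondrial lists were called. The 0.2, 0.4 and glmTreat settings called 22.2%, 9.58% and 9.64% of all tested genes lower.

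**Figure D4:**
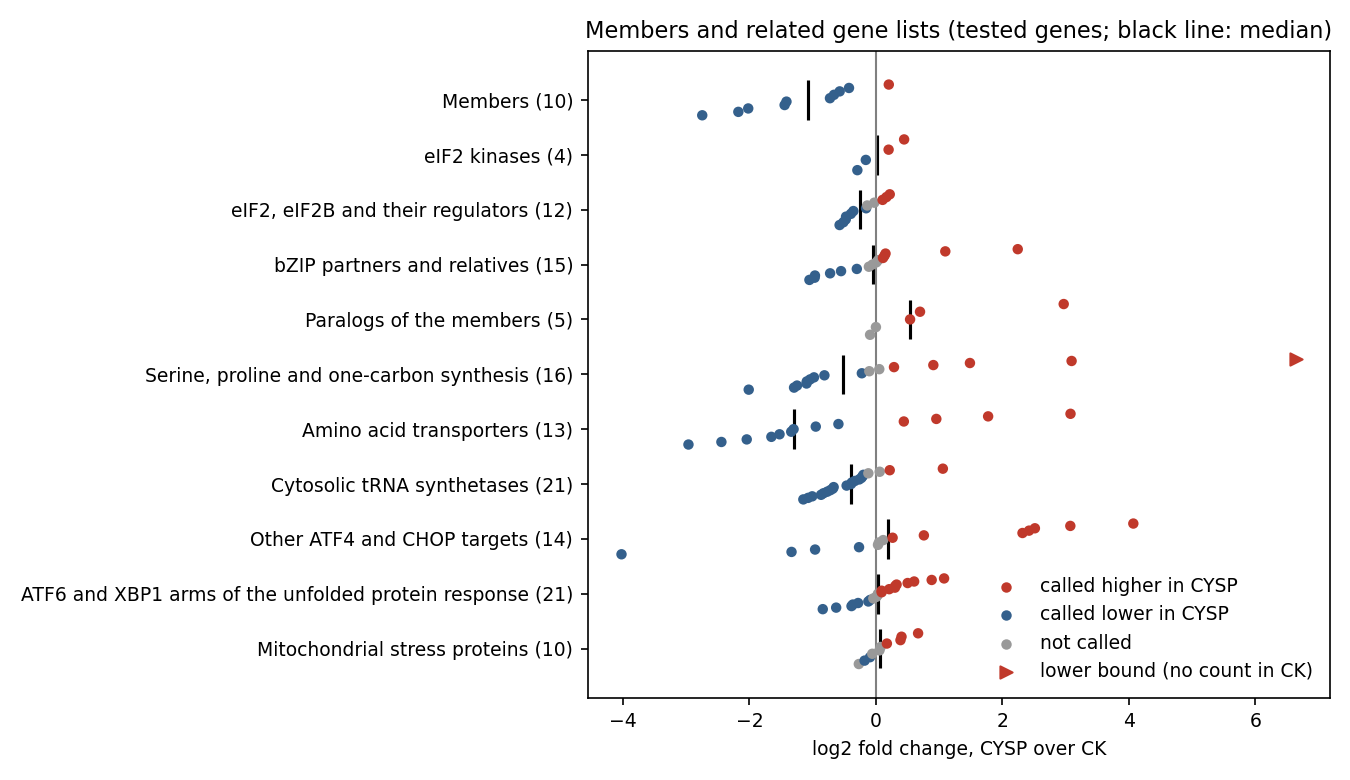
log2 fold change of CYSP over CK for each tested gene of the members and the 10 related lists, with the number tested in brackets; colours give the call, black lines the medians, and the triangle is the lower bound of Cbs, which had no count in CK. The members, the amino acid transporters and the tRNA synthetases lie mostly left of 0, while the eIF2 kinases and the unfolded protein and mitochondrial lists lie around 0.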

How the data were processed

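RNA of 6 samples was extracted with Trizol and enriched on oligo(dT) beads, per the labels' protocols. The submitters' processing notes name fastp 0.18.0, HISAT2, StringTie 1.3.1 and RSEM; the role of each, the counting tool, strand use, genome build and annotation were not given in the sources used here. The authors deposited raw counts and FPKM per gene and sample, their mean FPKM per group, a log2 fold change computed from those means, and a p-value with an adjusted p-value, per the file headers.

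Samples were grouped by title. The counts were tested with edgeR 4.0.16 in R 4.3.3 (filterByExpr, TMM scaling, robust dispersion, quasi-likelihood F test) across all 12623 genes that passed the filter, with Benjamini-Hochberg adjustment and a threshold of 0.05; SE and intervals derive from the same fit. CPM values are TMM-scaled. A further 6878 genes had no count and 3590 were under the filter. The procedure was checked on simulated counts.

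The members and the 10 related lists and 5 marker lists (184 genes, 181 found, 4 of them by an older symbol and 7 on several identifiers, of which the one with most counts was used) were chosen with earlier results of these data known. All members are described. From each list the rule takes up to 4 called genes of at least 1 CPM on average, ranked by the size of the change. It adds up to 2 of the minority direction and a set of fixed genes, and a selection of all these is printed. Cebpg was named outside this rule, beside Cebpb and Cebpd. Alternatives were 3 other scalings, DESeq2 1.42.0, limma-voom 3.58.1, no filter, at least 50 counts in 3 samples, omission of single samples, a block for the replicate number, limma-trend on log2(FPKM + 1) and log2(FPKM + 0.1) with a mean FPKM of at least 0.5, assumed coefficients of variation of 0.2 and 0.4, and glmTreat against a log2 fold change of 1. Of the 9 promoter windows used, all came from RefSeq on GRCr8.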

Additional observations from a re-analysis of the deposited data

How the results depend on the processing

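Over the 19 alternatives no member changed direction. Atf3, Ddit3, Trib3, Chac1 and Ppp1r15a were called lower in every one of them. With a coefficient of variation of 0.2 assumed, Atf5 and Psat1 lost their call (adjusted p = 0.13 and 0.509), with 0.4 and with glmTreat Atf4, Atf5, Asns, Sesn2 and Psat1 did. The counts over all tested genes were 4828 higher and 4772 lower; they were 3102 and 2801 with 0.2 assumed, 1496 and 1209 with 0.4, and 1504 and 1217 with glmTreat. Of the members, 0 were then higher in each of these 3 settings, and 5 were lower with 0.4 and with glmTreat. Leaving out each sample gave 4706 to 4751 genes higher and 4621 to 4687 lower, and 1 member higher and 9 lower each time. Same-numbered CYSP and CK samples showed no shared deviation (correlations -0.000633, 0.0185 and -0.00885 across genes). These values cannot tell whether samples of the same number shared a culture, animal or day, which the labels do not say. With the replicate block 4773 genes were higher and 4712 lower, with 1 member higher and 9 lower. The longer motif TGATGNAAT was in 1.09% of all promoters and 0.46% of those of tested genes, against 3.98% and 2.0% for TGATGNAA.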

Other observations

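The annotation in the deposited table places the members in wider groups, given as counts with no test. Each group below contains members, so its values are not independent of theirs. Among 37 tested genes that the annotation assigns to the bZIP transcription factors, which include Atf3, Atf4, Atf5 and Ddit3, 20 were lower and 10 higher in CYSP. Their median log2 fold change of -0.43 is the value of Atf5 itself. Of 28 tested genes of the intrinsic apoptosis pathway under endoplasmic reticulum stress, which include Atf4, Ddit3, Trib3 and Chac1, 16 were lower and 8 higher, with a median of -0.52. Of 43 tested genes of the cellular response to amino acid starvation 19 were lower and 17 higher, with a median of -0.09, and of 67 of the response to endoplasmic reticulum stress 25 were lower and 33 higher, with a median of 0.09. Over all tested genes 37.8% were lower and 38.2% higher.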
